A study of Mus musculus with 12 samples.

Results

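GABAergic neurons were represented by 8 genes that mark their transmitter identity and their developmental origin: Gad1, Gad2, Slc32a1, Dlx1, Dlx2, Dlx5, Dlx6 and Lhx6. They were taken by gene symbol from a table of 24100 genes, and all 8 had enough counts to enter every test. RNA was sequenced from 12 wells of primary entorhinal cortex (EC) neurons of embryonic day 17 C57BL/6J mice, 3 wells in each of 4 groups. Cells received an adeno-associated virus (AAV) after 7 days in culture, at 1e+10 viral genomes per ml, and were lysed 4 days later, to ask how the neurons respond to less or more of the chromatin protein DEK. No record used here says whether the wells of a group came from separate dissections, so p-values measure the spread between wells.

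The silencing group received AAV1-mCherry-U6-mDEK-shRNA, a hairpin against Dek, and the scrambled group received AAV1-mCherry-U6-scrmb-shRNA, a control hairpin. Despite its name, the control hairpin differs from the Dek hairpin in base composition. The overexpression group received AAV1-hSyn1-mDEK-IRES-mCherry, the mouse Dek coding sequence, and the empty vector group received AAV1-hSyn1-mCherry-WPRE. All 4 groups express mCherry. U6 is active in any transduced cell, glia included, whereas hSyn1 drives expression in neurons, so the 2 control viruses differ in promoter and cargo. Total counts ran from 15679567 to 18933382 per library. Dek served as a check of the labels: its level was 7.75 ± 1.00 counts scaled to library size, as CPM (mean ± SD, n = 3) in silencing, 36.1 ± 0.713 in scrambled, 143 ± 13.5 in overexpression and 38.7 ± 2.55 CPM in empty vector, and no library went against its label. Markers of all neurons summed to between 7447 and 9454 CPM in the 12 libraries, against 4.4 to 14.4 CPM for the summed microglial markers and 435.0 to 853.7 CPM for the summed astrocyte markers.

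GABAergic neurons make their transmitter from glutamate with the glutamic acid decarboxylases encoded by Gad1 and Gad2, and load it into vesicles with the transporter encoded by Slc32a1. Cortical interneurons are born outside the cortex, in the ganglionic eminences, where the homeodomain factors of the Dlx family switch on the GABAergic programme. Lhx6, a LIM homeodomain factor, acts after them in neurons of the medial ganglionic eminence, the source of the somatostatin and parvalbumin classes, and stays on in those cells in the adult cortex.

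The Dlx genes lie in 2 convergent pairs (positions from GENCODE vM21, build GRCm38). Dlx1 (chr2:71528113-71533981, plus strand) is separated by 9426 bases from Dlx2 (chr2:71543408-71546754, minus strand), and Dlx6 (chr6:6863334-6868568, plus strand) by 9236 bases from Dlx5 (chr6:6877805-6882085, minus strand). Lhx6 (chr2:36081953-36105408, minus strand), Gad1 (chr2:70553072-70602014, plus strand), Gad2 (chr2:22622205-22693874, plus strand) and Slc32a1 (chr2:158610767-158615748, plus strand) stand apart from each other. The RefSeq promoters of 6 of the 8 genes were found (GRCm38.p6, from 250 bases before to 50 after each start), all but those of Dlx5 and Dlx6. Dlx1 and Dlx2, the pair that rose, and Lhx6, the gene that fell, are shown here because their levels carry the main result. Capitals mark every match, on either strand, to 5 short motifs, and no match overlaps another. The first is the core that homeodomain proteins such as the DLX factors read, spelled TAATTA. The next is the E box of helix-loop-helix proteins, spelled CACGTG. The GC box, to which Sp factors bind in many promoters, is spelled GGGCGG. The inverted CCAAT box, read by the NF-Y complex of general promoters, is spelled ATTGG. The last is the box that places the start of transcription, spelled TATAAA. The 3 windows are Dlx1 at chr2:71529195-71529494 (plus strand), Dlx2 at chr2:71546705-71547004 (minus strand) and the most upstream of 3 Lhx6 starts at chr2:36105359-36105658 (minus strand), each written 5′ to 3′ along its gene.
Dlx1: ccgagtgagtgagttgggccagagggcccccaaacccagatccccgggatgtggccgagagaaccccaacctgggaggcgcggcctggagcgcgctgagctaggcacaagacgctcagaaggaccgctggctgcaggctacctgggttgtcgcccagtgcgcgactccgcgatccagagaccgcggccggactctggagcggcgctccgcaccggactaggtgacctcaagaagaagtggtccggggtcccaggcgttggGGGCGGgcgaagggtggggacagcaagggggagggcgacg
Dlx2: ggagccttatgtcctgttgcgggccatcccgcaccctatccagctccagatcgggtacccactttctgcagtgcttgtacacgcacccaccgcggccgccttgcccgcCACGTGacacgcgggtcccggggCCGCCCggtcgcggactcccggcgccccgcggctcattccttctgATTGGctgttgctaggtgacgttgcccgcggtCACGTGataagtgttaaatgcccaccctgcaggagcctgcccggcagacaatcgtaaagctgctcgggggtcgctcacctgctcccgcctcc
Lhx6: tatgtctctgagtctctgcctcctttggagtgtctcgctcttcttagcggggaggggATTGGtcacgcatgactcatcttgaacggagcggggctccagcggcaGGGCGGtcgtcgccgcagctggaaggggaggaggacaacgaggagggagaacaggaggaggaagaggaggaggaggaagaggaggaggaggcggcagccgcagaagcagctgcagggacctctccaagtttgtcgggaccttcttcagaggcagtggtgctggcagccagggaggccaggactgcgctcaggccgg

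The Dlx2 window held 2 E boxes, a motif found in 7.15% of all 32851 promoters, 1 GC box (35.7% of promoters) and 1 inverted CCAAT box (37.4%). The Dlx1 window held 1 GC box and no other match, and the Lhx6 window held 1 GC box and 1 inverted CCAAT box. The homeodomain core was in none of the 8 windows of the identity genes, with 5.29% of all promoters holding it. The spelling TATAAA, held on either strand by 13.6% of promoters, was in the windows of Gad1 and of the innermost Lhx6 start. In each it lay on the strand opposite to the gene, and whether it serves as a TATA box was not tested. G and C made up 69.3% of the Dlx1 window, 66.3% of the Dlx2 window and 63.3% of the Lhx6 window, above the median of 52.7% over all promoters.

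Also shown is AAGAGGA, a stretch of the hairpin's target in Dek, which was picked after its relation to expression in these libraries was known. Of 13400 genes tested that have a 3′ UTR, 15.8% held the heptamer there, as did 25.7% of the 6568 genes whose 3′ UTR was at least as long as the median of the 8 identity genes. Lhx6 held it at 2 places (from bases 749 and 1634 of its 3′ UTR of 2101 bases) and Dlx6 at 1 (from base 768 of 1276), whereas the 3′ UTRs of the other 6 genes had no match. The heptamer is in capitals in each site.
Lhx6 first site: catggagagaaAAGAGGAaacttgggggg
Lhx6 second site: ctgactcaagcAAGAGGAacctggcctga
Dlx6 site: ggaggaggaggAAGAGGAggaggaggagg
The Dlx6 site sits in a run of GGA repeats. Whether the heptamer has a part in the level of either gene was not tested.

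Read per length, the transmitter genes were far above the transcription factors. In the scrambled libraries Gad1 stood at 451 ± 16.9 CPM per kb of its longest coding transcript (mean ± SD, n = 3), Slc32a1 at 95.6 ± 8.44 and Gad2 at 92.6 ± 0.737 CPM per kb, and the last 2 overlapped. Lhx6 followed at 39.5 ± 0.804 CPM per kb, then Dlx1 (11.8 ± 0.564) and Dlx5 (11.8 ± 0.599), which overlapped, and Dlx2 (5.62 ± 0.320) and Dlx6 (5.47 ± 0.330), which overlapped too. In the empty vector libraries the levels ran from 358 ± 13.1 CPM per kb for Gad1 to 4.10 ± 0.117 CPM per kb for Dlx2, with Gad2 (81.9 ± 2.30) above Slc32a1 (73.1 ± 1.46) and Lhx6 at 28.7 ± 1.81 CPM per kb.
The order of the transcription factors was different in silenced cultures. Dlx5 came first, at 36.6 ± 6.35 CPM per kb, followed by Dlx1 at 22.6 ± 3.26 and Dlx2 at 18.6 ± 2.64, whose ranges overlapped, and Lhx6 was at 12.9 ± 0.719 CPM per kb, above only Dlx6 (6.28 ± 1.18). The lowest value of Dlx2 in silencing (16.97 CPM per kb) was above the highest of Lhx6 (13.6 CPM per kb), while in the other 3 groups Lhx6 was above every Dlx gene in every library.

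**Figure D1:**
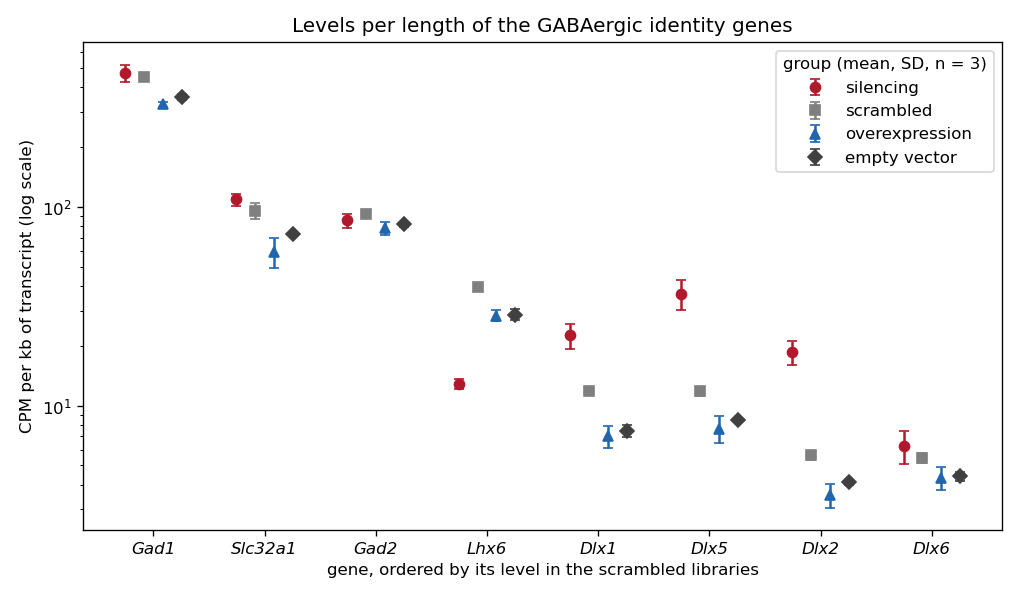
Level of each GABAergic identity gene in CPM per kb of transcript (vertical axis, log scale) for the 4 groups (symbols, mean; bars, SD; n = 3), with genes ordered by their level in the scrambled libraries. Lhx6 in silencing, at 12.9 CPM per kb, lies below Dlx1, Dlx2 and Dlx5 of the same cultures, and below its own level of 39.5 CPM per kb in scrambled.

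Dek silencing split the 8 genes. Compared with scrambled, 3 Dlx genes rose (Dlx2, Dlx5 and Dlx1), Lhx6 fell and the 3 transmitter genes and Dlx6 did not pass the test (adjusted p < 0.05 in edgeR's quasi-likelihood test over 14232 genes). Silencing moved much of the transcriptome: 26.2% of all genes tested were called higher and 28.5% lower, so the counts of 3 and 1 among 8 do not set the list apart. With scaling by library size alone, 4793 genes in all were called higher and 3210 lower, instead of 3730 and 4060. The median log2 fold change (log2FC) was 0.18 over the 8 genes and −0.0011 over all genes.

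Dlx2, a factor that commits ventral progenitors to the GABAergic lineage, stood at 42.4, 53.5 and 42.0 CPM in the silenced libraries and at 14.8, 13.7 and 13.2 CPM in scrambled. Each silenced library was above each scrambled one, by a wide gap. The rise was 3.28-fold (log2FC = 1.71, SE 0.11, adjusted p = 1.33e-07).
Dlx5, expressed as interneuron precursors leave the ventricular zone, was at 52.4, 61.0 and 43.0 CPM in silencing and 17.03, 17.5 and 15.8 CPM in scrambled. Its groups did not overlap either, and the third silenced well was again the lowest of its group. The rise was 3.08-fold (log2FC = 1.62, SE 0.12, adjusted p = 1.08e-06).
Dlx1, which shares its enhancers with Dlx2 and remains on in some adult interneurons, was at 94.5, 106 and 78.9 CPM in silencing and 45.9, 50.1 and 49.7 CPM in scrambled. It rose 1.89-fold with no overlap (log2FC = 0.92, SE 0.10, adjusted p = 1.71e-05).

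Lhx6 went the other way. It was at 44.4, 47.4 and 42.4 CPM in the silenced libraries and at 135, 138 and 140 CPM in scrambled. The scrambled wells lay close together and far above all silenced wells. The fall was 3.10-fold (log2FC = −1.63, SE 0.06, adjusted p = 3.02e-09).

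Dlx6, the convergent neighbour of Dlx5, was at 16.2, 14.5 and 11.1 CPM in silencing and 12.9, 11.6 and 11.8 CPM in scrambled. These groups overlapped (log2FC = 0.18, 95% interval from −0.12 to 0.48, adjusted p = 0.28), and the third silenced well was the lowest of all 6. Without that well Dlx6 was called higher (log2FC = 0.32, adjusted p = 0.039).
The neighbours could also be compared within each library. The ratio of Dlx5 to Dlx6, per length, was 5.03, 6.56 and 6.05 in silencing against 2.05, 2.35 and 2.08 in scrambled, a difference of 1.44 on the log2 scale. That of Dlx2 to Dlx1 was 0.747, 0.842 and 0.884 against 0.534, 0.455 and 0.441, a difference of 0.79. Both ratios were higher in every silenced library, with an exact two-sided permutation p = 0.1, the smallest that 3 wells against 3 allow. In overexpression against empty vector the same ratios differed by −0.13 (exact permutation p = 0.1) and −0.12 (exact permutation p = 0.5).

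The transmitter genes did not pass the test. Gad1 was at 1759, 1553 and 1445 CPM in silencing and 1580, 1484 and 1479 CPM in scrambled, with overlapping groups (log2FC = 0.05, 95% interval from −0.09 to 0.19, adjusted p = 0.51). Gad2 was at 533, 487 and 454 CPM against 536, 528 and 532 CPM (log2FC = −0.13, interval from −0.25 to −0.01, adjusted p = 0.070). One silenced well of Gad2 lay within the scrambled range and the other two below it. Without that well, the first, Gad2 was called lower (log2FC = −0.19, adjusted p = 0.0067), and with a correction for GC content and length its sign turned (0.05, adjusted p = 0.36).
Slc32a1 was at 281, 322 and 311 CPM in silencing and 289, 271 and 242 CPM in scrambled (log2FC = 0.17, interval from 0.01 to 0.34, adjusted p = 0.064). Of its silenced wells, only the first fell within the scrambled range. It was called higher in 6 of 15 alternatives, among them those without silencing replicate 1 (0.23, adjusted p = 0.013) or without scrambled replicate 1 (0.23, adjusted p = 0.025), while the GC and length correction gave 0.04.

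**Figure D2:**
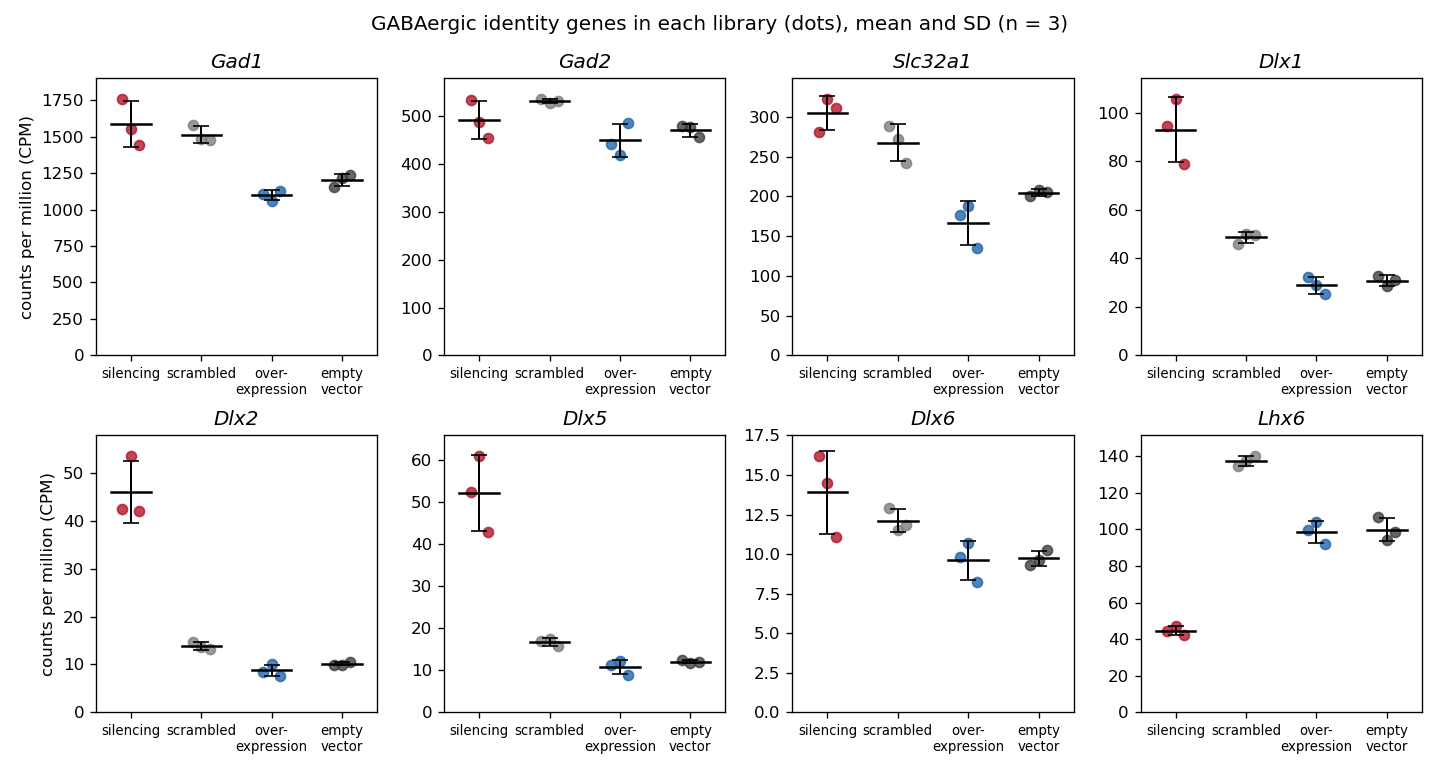
Level of the 8 GABAergic identity genes in CPM (vertical axes, from 0) in each of the 12 libraries (dots), with the group mean and SD (n = 3). Dlx1, Dlx2 and Dlx5 are highest and Lhx6 lowest in all 3 silenced libraries, while Gad1, Gad2, Slc32a1 and Dlx6 overlap between silencing and scrambled.

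Non-coding neighbours of the Dlx genes were read beside them. Dlx1as, transcribed against Dlx1 and sharing 335 exonic bases with it, was at 240, 192 and 187 CPM in silencing and 135, 127 and 120 CPM in scrambled, and rose (log2FC = 0.68, SE 0.09, adjusted p = 0.00012). Dlx6os1, the antisense RNA also known as Evf2, which spans the Dlx6 locus but shares 0 exonic bases with Dlx6, was at 258, 211 and 198 against 152, 142 and 134 CPM and rose by 0.62 (SE 0.09, adjusted p = 0.00029). Both had no overlap between groups. Whether the counting used strand is not given in the sources used here, so reads from the stretch that Dlx1 and Dlx1as share cannot be told apart. Gad1os, antisense to Gad1 with 0 shared exonic bases, had at most 1.73 CPM in any library (log2FC = 0.20, adjusted p = 0.60). Slc32a1 shares 697 exonic bases with the antisense gene Gm14205, and Dlx6 shares 104 with Dlx6os2, and neither of these partners was analysed here.

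Fewer cells of a type and less RNA per cell cannot be told apart in bulk RNA, and markers of other cells also moved with silencing. The counts below stand beside 26.2% of all genes tested called higher and 28.5% lower. Oligodendrocyte markers summed to between 83.0 and 90.1 CPM in the silenced libraries and between 30.9 and 41.6 CPM in scrambled, with 4 of 5 tested higher and 1 lower. Of the oligodendrocyte precursor markers, 3 of 5 were higher (summed 92.5 to 199 against 62.3 to 110 CPM). Among the 6 markers of dividing and progenitor cells, in which Dlx1 and Dlx2 are active in the embryo, 1 was higher and none lower (summed 71.6 to 119 against 93.3 to 139 CPM). The higher one was Mki67 (log2FC = 1.00, adjusted p = 0.015). Nes, at 44.5 ± 13.9 against 79.0 ± 16.3 CPM, was the largest part of that sum. At an unadjusted p < 0.05 in edgeR, 3 of the 6 were higher and 1 lower. DESeq2 called 2 of these 6 higher and 1 lower. Of the 12 pan-neuronal markers, 8 were lower and 1 higher, with a summed level of 7447 to 8092 against 8936 to 9250 CPM, and none of 9 astrocyte markers was called by edgeR, DESeq2 or limma-voom, with 0 at an unadjusted p < 0.05 in edgeR. The part of these cells in the levels of the identity genes was not tested.

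Dek overexpression called none of the 8 genes in edgeR, or in DESeq2, limma-voom or any other alternative. The only gene called among 14089 was Dek itself, which is 0.00710% of genes. The log2FC of all 8 was below 0 (median −0.11, against 0.0018 over all genes) and 2 had an unadjusted p < 0.05, both lower, as had 3.68% of all genes. These were Slc32a1, at 176, 187 and 135 CPM in overexpression and 200, 208 and 205 CPM in empty vector (log2FC = −0.30, interval from −0.51 to −0.08, adjusted p = 0.69), and Gad1, at 1107, 1061 and 1130 against 1154, 1216 and 1239 CPM (log2FC = −0.13, interval from −0.23 to −0.02, adjusted p = 0.69). In each the overexpressing wells were all below the control wells, by a narrow margin.
For the genes that moved in silencing the intervals were bounded as well: −0.29 to 0.11 for Dlx1, −0.47 to 0.05 for Dlx2, −0.40 to 0.11 for Dlx5 and −0.15 to 0.13 for Lhx6. Lhx6 was at 99.5, 104 and 92.3 CPM in overexpression and 107, 94.3 and 98.4 CPM in empty vector, which overlapped. Its log2FC of −0.01 turned positive in 3 alternatives, as that of Dlx6 (−0.02) did in 2.

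The response to silencing was compared directly with that to overexpression in 1 fit over all 12 libraries. In it 20.4% of 14604 genes had a higher and 22.7% a lower response to silencing, and of the identity genes 4 were higher and 1 lower. Scaling by library size alone gave 3755 higher and 2733 lower genes in all, instead of 2972 and 3315. The difference of the log2FC was 1.94 for Dlx2 (SE 0.16, adjusted p = 3.61e-08), 1.78 for Dlx5 (SE 0.18, adjusted p = 3.52e-07), 1.03 for Dlx1 (SE 0.15, adjusted p = 2.63e-05) and −1.60 for Lhx6 (SE 0.09, adjusted p = 2.49e-10). Slc32a1 differed too (0.49, SE 0.14, adjusted p = 0.013), with a response above 0 in one experiment and below 0 in the other, and its value was 0.26 (adjusted p = 0.031) after the GC and length correction. The differences for Gad1 (0.20, interval from 0.02 to 0.38, adjusted p = 0.074), Gad2 (−0.05, interval from −0.23 to 0.13) and Dlx6 (0.22, interval from −0.18 to 0.62) did not pass. Gad1 did pass in 4 of 20 alternatives: without silencing replicate 3 (0.26, adjusted p = 0.014), with library size scaling (0.28, adjusted p = 0.011), with a minimum of 5 CPM in 3 libraries (0.23, adjusted p = 0.032) and after the GC and length correction (0.21, adjusted p = 0.021). That correction turned the sign of Gad2, which was then called higher (0.15, adjusted p = 0.039).

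The 2 control viruses did not give the same level of these genes. All 8 were higher in scrambled than in empty vector, where 21.3% of 14096 genes were called higher and 21.8% lower. The log2FC ran from 0.18 for Gad2 (adjusted p = 0.0017) to 0.66 for Dlx1 (adjusted p = 8.53e-06), with a median of 0.42 against 0.01 over all genes. Lhx6 was 1.38-fold higher in scrambled, at 135, 138 and 140 against 107, 94.3 and 98.4 CPM (log2FC = 0.46, adjusted p = 1.36e-05), and Gad1 1.26-fold higher (0.33, adjusted p = 2.22e-05). For all 8 genes each scrambled library was above each empty vector library. The share of all genes separated in this way is not given here, so this does not set the list apart. Markers of other cells also moved between the controls. Of 13 glutamatergic markers 6 were lower and 1 higher in scrambled (summed 1038 to 1158 against 1359 to 1460 CPM), and of 12 striatal markers 8 were lower and 1 higher (summed 293 to 328 against 328 to 349 CPM). The striatal sums overlapped slightly (328.4 against 328.1 CPM), and limma-voom called 7 striatal markers lower but DESeq2 only 3. Of 9 astrocyte markers 2 were higher in edgeR, 3 in DESeq2 and 0 in limma-voom, with a median log2FC of 0.62 (summed 530.1 to 812 against 435.0 to 563 CPM). The part of these cells in the difference between the controls was not tested.
The weakest of these was Dlx6, with 12.9, 11.6 and 11.8 against 9.33, 9.66 and 10.3 CPM (log2FC = 0.31, adjusted p = 0.028). Its call was lost in 8 of 15 alternatives, including those without scrambled replicate 1 (0.26, adjusted p = 0.074), scrambled replicate 3 (0.33, 0.051), empty vector replicate 1 (0.28, 0.078) or empty vector replicate 2 (0.30, 0.084). Correction for GC content and length ended the call of Dlx5 (0.25, adjusted p = 0.051, from 0.47) and lowered Slc32a1 to 0.24 and Dlx2 to 0.29, but raised Gad2 to 0.40. Virus, promoter and cargo differ together between these controls and cannot be told apart.

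The silenced libraries were therefore also set against empty vector, a comparison that shares them with the first. Here 34.0% of 14292 genes were called higher and 33.5% lower. Dlx2 (log2FC = 2.18, SE 0.11), Dlx5 (2.11, SE 0.12), Dlx1 (1.60, SE 0.10), Slc32a1 (0.58, SE 0.06), Dlx6 (0.51, SE 0.14) and Gad1 (0.40, SE 0.06) were higher, with adjusted p from 3.78e-09 to 0.0051. Lhx6 was lower (−1.16, SE 0.07, adjusted p = 1.55e-08), below both controls. Gad2 was at 0.06 (interval from −0.06 to 0.19, adjusted p = 0.35) and was called higher only after GC and length correction (0.47, adjusted p = 7.14e-07), which also lowered Slc32a1 to 0.30. Thus the direction of Dlx1, Dlx2, Dlx5 and Lhx6 was the same against either control, while whether Gad1, Slc32a1 and Dlx6 were called depended on which control was used.

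**Figure D3:**
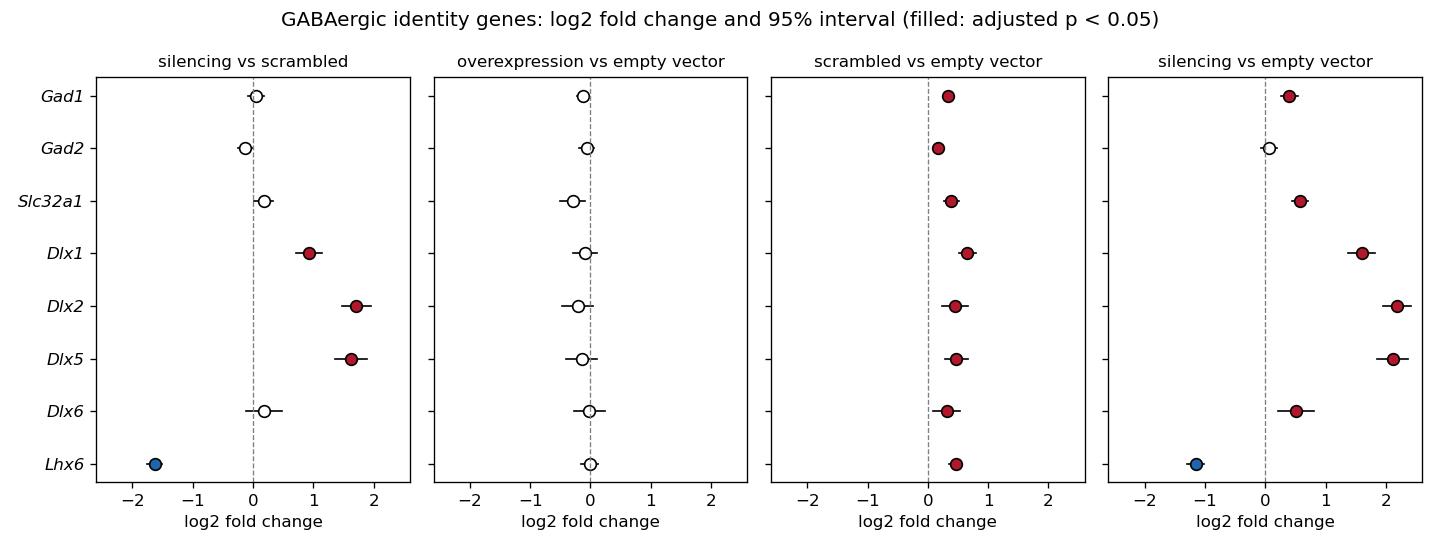
The log2 fold change of each identity gene (points) with its 95% interval (lines) in 4 comparisons, filled where the adjusted p was below 0.05 (red higher, blue lower). Silencing separates Dlx1, Dlx2 and Dlx5 (0.92 to 1.71) from Lhx6 (−1.63) against scrambled, no gene is filled in overexpression, and all 8 are filled between the 2 controls.

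Other transcription factors of cortical interneurons, 18 genes of which 16 could be tested, were read beside them. In silencing against scrambled 2 were higher, 5 were lower and 9 did not pass, with a median log2FC of −0.15. Set against 26.2% of all genes higher and 28.5% lower, these counts do not set the list apart. Sp8, a zinc finger factor of the lateral and caudal eminences, rose from 14.2 ± 1.81 to 32.8 ± 6.20 CPM (n = 3; log2FC = 1.19, SE 0.14, adjusted p = 4.4e-05). Gsx1, a factor of ventral progenitors, was higher on a handful of counts (1.09 ± 0.364 against 0.431 ± 0.131 CPM, adjusted p = 0.016).
Among the lower genes were Zeb2, which acts in newborn neurons of the medial eminence (log2FC = −0.56, adjusted p = 1.5e-05), the COUP-TF factors Nr2f1 (−0.55, adjusted p = 7.0e-06) and Nr2f2 (−0.45, adjusted p = 8.8e-05), which mark the caudal eminence, and Pou3f4 (−0.34, adjusted p = 0.012). Nkx2-1, which activates Lhx6, did not pass (−0.15, adjusted p = 0.62), at a low level of 1.99 ± 0.299 CPM in silencing and 2.19 ± 0.437 CPM in scrambled (n = 3). Sox6 and Satb1, which act after Lhx6, did not pass either, at 0.24 (adjusted p = 0.097) and −0.14 (adjusted p = 0.098). The difference from the overexpression response was higher for 1 of the 16 and lower for 3, beside 20.4% and 22.7% of all genes. The higher one was Sp8 (1.33, adjusted p = 3.5e-05). Among the lower ones were Nr2f1 (−0.45, adjusted p = 0.00012) and Zeb2 (−0.58, adjusted p = 0.00020). Overexpression called none of 15 in edgeR, with 0 at an unadjusted p < 0.05 and 0 in DESeq2 and limma-voom.

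**Figure D4:**
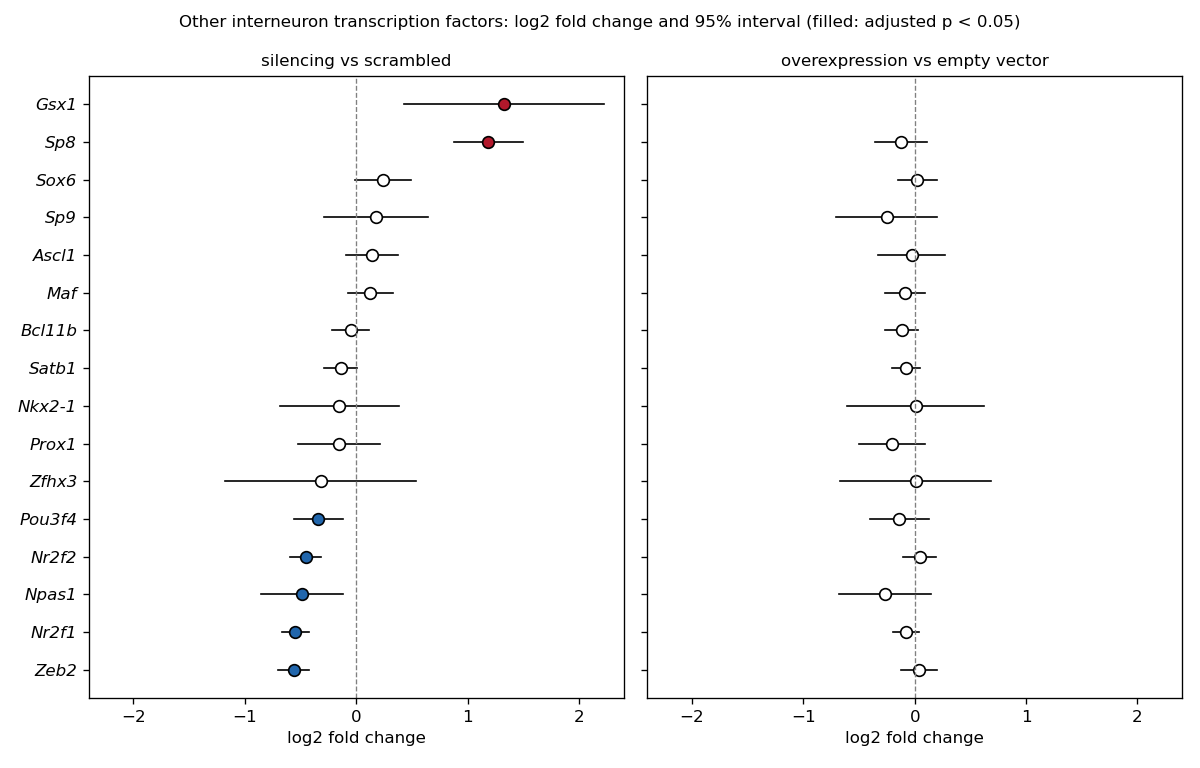
The log2 fold change (points) and 95% interval (lines) of 16 other interneuron transcription factors in silencing (left) and overexpression (right), filled where the adjusted p was below 0.05. On the left Gsx1 and Sp8 are higher and 5 genes are lower, and on the right, where Gsx1 was not tested, no gene is filled.

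Markers of interneuron classes moved in both directions in silencing. Of 29 tested, 5 were higher and 9 lower, beside 26.2% and 28.5% over all genes, with a median log2FC of −0.14, so the counts do not set this list apart either. Somatostatin (Sst), a peptide of the class that depends on Lhx6, fell from 142 ± 23.5 to 90.5 ± 7.70 CPM (n = 3; −0.66, SE 0.12, adjusted p = 0.0017). Parvalbumin (Pvalb), which marks the other such class and appears late in development, rose from 1.01 ± 0.258 to only 4.59 ± 1.81 CPM (2.16, SE 0.35, adjusted p = 0.00037). Elfn1, a synaptic adhesion gene of somatostatin cells (0.77, adjusted p = 3.0e-06), Htr3a, the serotonin receptor of caudal interneurons (0.97, adjusted p = 2.6e-05), and Tac2 (0.80, adjusted p = 0.0077) rose. Lamp5 (−0.75, adjusted p = 7.1e-06), a marker of neurogliaform cells, calretinin (Calb2; −0.75, adjusted p = 1.4e-05), the cannabinoid receptor Cnr1 (−0.76, adjusted p = 0.00019) and Synpr (−0.36, adjusted p = 0.00024) fell. The 2 controls differed in this list as well. In scrambled 11 of the 29 were higher and 6 lower than in empty vector, beside 21.3% and 21.8% of all genes. Sst was at 261 ± 16.6 CPM in empty vector, above its level in scrambled, whereas Elfn1 (28.4 ± 0.673 against 50.4 ± 4.20 CPM) was below it. Overexpression called none of the 29 in edgeR, with 3 higher and 9 lower at an unadjusted p < 0.05, while limma-voom called 0 and DESeq2 called 1 (Cck, lower). Of all 14089 genes tested in edgeR, 411 were higher and 519 (3.68%) lower at that unadjusted level.

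Of the genes that recycle and break down GABA, 11 were tested in silencing, with 3 higher and 2 lower, again beside 26.2% and 28.5% over all genes. Aldh5a1, which completes the breakdown of GABA to succinate, rose (0.61, SE 0.06, adjusted p = 8.0e-06), whereas Abat, which starts it, fell from 451 ± 13.4 to 326 ± 10.7 CPM (n = 3; −0.48, SE 0.05, adjusted p = 6.1e-06). The glutamine transporter Slc38a2 fell (−1.07, SE 0.10, adjusted p = 4.3e-06). Glud1 (0.37, adjusted p = 0.00093) and Gls2 (0.69, adjusted p = 0.0062), of glutamate metabolism, rose. Markers of GABAergic projection neurons, mostly striatal, gave 1 higher and 5 lower of 11 tested, beside 26.2% and 28.5% of all genes, with summed levels of 180 to 196 CPM in silencing and 293 to 328 CPM in scrambled. Meis2, which works with Dlx factors in the striatal lineage, was among the lower ones (−0.83, adjusted p = 3.7e-07).

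Across the 12 libraries, the mean of the standardised profiles of the 8 genes was most closely matched, among the 11019 genes with a mean of at least 5 CPM and leaving out the 8 themselves, by Isca1 (Pearson's r = 0.981), Kcnn2 (0.974), 1500015A07Rik (0.973), Blcap (0.973) and Reln (0.972). Reln, the secreted glycoprotein made by EC layer II cells and by some interneurons, was at 1497 ± 186 CPM in silencing, 1288 ± 36.4 in scrambled, 727 ± 66.2 in overexpression and 810 ± 63.4 CPM in empty vector. The mean profile does not stand for all 8 genes: Lhx6 ran against it (r = −0.413) and Gad2 followed it less closely (0.670). The other identity genes had r from 0.843 (Dlx2) to 0.973 (Gad1), each being part of the mean. These values describe libraries that fall into 4 groups, and each gene shares library and depth with the profile.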

How the data were processed

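RNA-seq counts of 12 wells of mouse EC neurons, 3 in each of 4 groups, were used as deposited. Per the labels, libraries were made from 200 ng of RNA with a TruSeq kit, and the submitters' processing notes name Salmon, DESeq2 and mm10, with no versions. The deposited values are estimated counts that the authors made per gene with Salmon (38.6% are not whole), and they were rounded to whole numbers. Genes low in the libraries compared were removed with filterByExpr in edgeR (4.0.16, R 4.3.3), libraries were scaled by TMM, and a robust quasi-likelihood fit was tested in each pair of groups, or in all 12 libraries for the difference of the responses. Calls used a Benjamini-Hochberg adjusted p < 0.05 over all genes tested. Levels are CPM after TMM over the 12 libraries. Totals of 15679567 to 18933382 counts put at least 134 counts behind every value of an identity gene, and the spread between wells sets the precision.

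Alternatives were DESeq2 (1.42.0) with its Wald test or its size factors, limma-voom (limma 3.58.1), library size scaling, no filter, at least 5 CPM in 3 libraries, 1 fit of all libraries, a replicate block, a spline correction for GC content and transcript length, and leaving out each library. The fits were tested on simulated data. The identity genes, the other gene lists (written by hand) and the tests were chosen with earlier results of these data known. Genes of a list were named by the smallest adjusted p, up to 4 in each direction, beside all identity genes, genes overlapping them, the 5 closest profiles, and members of the interneuron and GABA lists whose level is described. Transcripts, positions and 3′ UTRs are from GENCODE vM21 (GRCm38), promoters from RefSeq. Replicate numbers were not used to pair the wells, although same-numbered wells of silencing and scrambled correlated weakly (r from 0.0697 to 0.304). Some genes of the lists are not reported here and were left out of the list counts.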

Additional observations from a re-analysis of the deposited data

Results flagged for a closer look

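For 5 identity genes the response to Dek silencing differed from the response to Dek overexpression when that difference was itself tested (edgeR, 12 libraries, adjusted p < 0.05). Of all 14604 genes tested in that fit, 20.4% had a higher and 22.7% a lower response to silencing. On the log2 scale the difference was 1.94 for Dlx2, 1.78 for Dlx5, 1.03 for Dlx1, 0.49 for Slc32a1 and −1.60 for Lhx6. For each of the 5 it passed in all 20 alternatives. The 2 experiments also differ in promoter and control virus, and the part of that difference was not tested.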

How the results depend on the processing

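Dlx1, Dlx2, Dlx5 and Lhx6 kept their direction and call in silencing in all 15 alternatives, with log2FC from 0.82 to 1.03, 1.58 to 1.81, 1.49 to 1.74 and −1.72 to −1.54. The count of identity genes lower in silencing went from 1 to 2, with Gad2 added, without the filter on low counts (2) and under the replicate block (2), and lay between 1 and 2 when each library was left out. Under the replicate block Slc32a1 was also called higher (0.18, adjusted p = 0.040) and Gad2 was at −0.13 (adjusted p = 0.029). Same-numbered wells of silencing and scrambled correlated at 0.0697 to 0.304, and wells of the other comparisons at −0.212 to −0.0197. Pairs were to be used only where every same-numbered r was above 0.1, so the numbers were not taken as pairs. All same-numbered values in silencing against scrambled were positive, so a part shared by number in that comparison is not excluded.

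Signs turned only for genes not called in the reported fits. After the GC and length correction Gad2 was at 0.048 in silencing and 0.15 in the difference of responses (called, adjusted p = 0.039), and Lhx6 at 0.010 in overexpression. Library size scaling gave 0.035 for Gad2 in that difference. Leaving out each library gave ranges across 0: −0.024 to 0.11 for Gad1 in silencing, −0.10 to 0.079 for Dlx6 and −0.057 to 0.034 for Lhx6 in overexpression, −0.016 to 0.10 for Gad2 in silencing against empty vector, and −0.11 to 0.0094 for Gad2 in the difference of responses. The causes were not tested. Library size scaling moved the median log2FC of all genes in silencing to 0.098. With 3 wells a group, a gene whose interval spans 0 is not shown to be unchanged.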
